A study of Canis lupus familiaris with 23 samples.

Results

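Osteosarcoma is a malignant bone tumor whose cells make bone matrix, and its tumors differ in how far their cells carry the program of bone-forming osteoblasts. The 15 primary canine osteosarcomas of this series were ordered by 3 genes of that program, PTH1R, ALPL and PHEX, and the 5 tumors at the top were compared with the 5 at the bottom. The 10 tumors were thus selected on the measured values of these 3 genes out of 15 tumors and 23 samples in all. Each gene had 1 annotated probe set on the array. Its log2 value minus its mean over the 15 tumors was averaged over the 3 genes to give a score, and the 5 highest tumors are called high-score and the 5 lowest low-score. The probe sets annotated to the 3 genes were left out of every test. Of the 23833 probe sets tested, 13149 had no gene symbol, so others of these genes could remain among them.

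Osteoblasts arise from mesenchymal precursors under the transcription factors RUNX2 and SP7, lay down a matrix of type I collagen, and then mineralize it. PTH1R is the receptor through which parathyroid hormone and its related peptide signal to osteoblasts and kidney tubules by way of cyclic AMP. ALPL, the tissue-nonspecific alkaline phosphatase, removes pyrophosphate and so allows mineral to form, and is the enzyme whose serum activity is followed in dogs with osteosarcoma. PHEX is a membrane endopeptidase of late osteoblasts and osteocytes that takes part in phosphate balance. Osteocalcin, encoded by BGLAP, is a late product of the same cells.

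RNA from whole tumor pieces, taken at surgery before any chemotherapy, was hybridized to Affymetrix canine arrays, 1 array per tumor. The other 8 arrays held 2 lines of cultured osteosarcoma cells and normal kidney, liver and lymph node, each organ from 2 samples. The descriptions call every tumor by tissue and tumor state alone, with no strain, age or treatment. Each tumor also has its own title, and the paper reports that the tumors were taken from dogs at surgery. Neither says outright that each came from a different dog, so p-values measure the spread between these samples. Tumors are numbered here by replicate, and the values of the 5 high-score tumors are given in the order 13, 1, 10, 3, 12 and those of the 5 low-score tumors in the order 14, 5, 11, 2, 8, from the top of the score to the bottom. All values are RMA log2 levels, so that a difference of 1 is a doubling, and every difference is the high-score mean minus the low-score mean. Levels are not compared between genes, because each probe set has its own brightness. In whole tumor tissue, fewer cells of a type and less RNA per cell cannot be told apart.

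The score was 1.71, 1.36, 1.10, 1.04 and 0.82 in the high-score tumors, against -0.51, -1.24, -1.28, -1.41 and -1.77 in the low-score tumors. The 5 middle tumors lay between 0.40 and -0.48. On the high side the last tumor taken was tumor 12 at 0.82 and the first left out was tumor 6 at 0.40, whereas on the low side tumor 14 at -0.51 was taken and tumor 7 at -0.48 was not, so the lower border fell in a narrow gap.

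PTH1R carried most of the range. Its levels were 10.8, 9.73, 9.02, 10.6 and 8.48 in the high-score tumors, against 7.86, 4.89, 6.16, 5.91 and 4.74 in the low-score tumors. ALPL stood at 7.397, 8.79, 5.04, 7.08 and 7.84 in the high-score tumors, against 5.004, 3.98, 4.27, 4.57 and 4.33 in the low-score tumors. Both genes separated the groups, ALPL only narrowly because of tumor 10. PHEX was 5.85, 4.52, 8.198, 4.44 and 5.08 in the high-score tumors, against 4.56, 6.37, 4.70, 4.24 and 4.59 in the low-score tumors, and here the groups overlapped. These values chose the tumors and are a description only.

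The 3 genes did not move as 1 program. Over the 15 tumors, PTH1R and ALPL had a Pearson correlation of 0.71, whereas PTH1R and PHEX had 0.12 and ALPL and PHEX had -0.16, values that share their arrays and are given with no test. Tumor 10 was in the high-score group through PHEX, 3.02 above the tumor mean, while its ALPL was 0.63 below it (-0.63). Tumor 5 was in the low-score group although its PHEX was 1.19 above the mean. The 2 cell lines averaged 4.62 for PTH1R, 3.93 for ALPL and 4.91 for PHEX, and the 2 kidneys averaged 9.74 for PTH1R, which is near the high-score mean of 9.73.

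**Figure D1:**
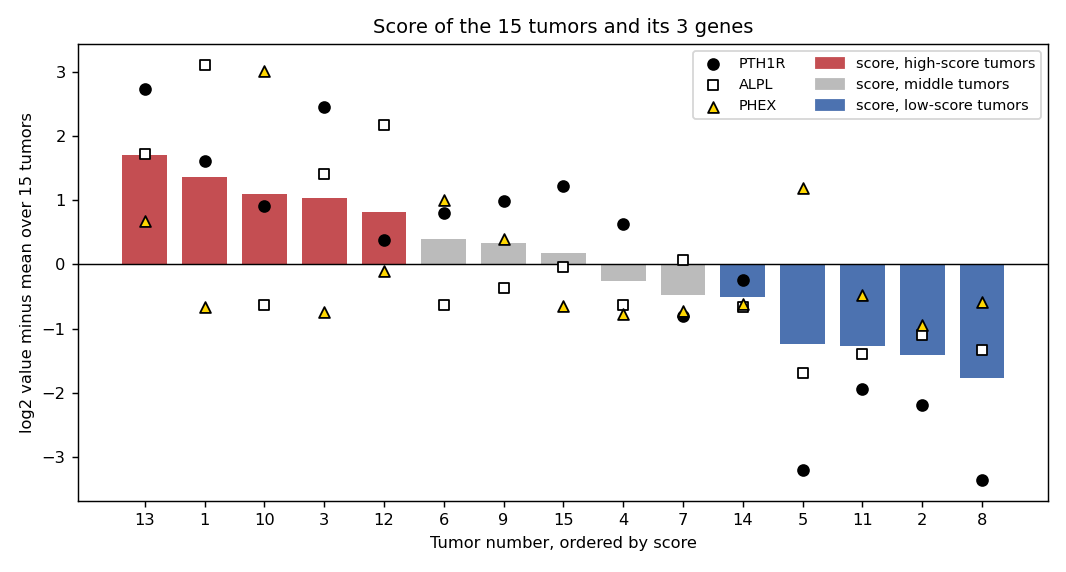
Score (bars) and the centred log2 levels of PTH1R, ALPL and PHEX (points) in each of the 15 tumors, ordered from the highest score to the lowest. The PTH1R points follow the bars from 2.74 in tumor 13 to -3.37 in tumor 8, whereas PHEX stands out only in tumor 10 (3.02), tumor 5 (1.19) and tumor 6 (1.01).

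The arrays also differed in control signals that the score did not use. On 7 of the 15 tumors the 5′ ends of the actin and Gapdh control transcripts gave far less signal than their 3′ ends, with a mean 3′ minus 5′ difference above 1.5. These were tumors 1, 10 and 12 of the high-score group, 4 and 7 of the middle and 14 and 8 of the low-score group. The difference averaged 2.16 ± 2.29 in high-score and 1.57 ± 1.68 in low-score tumors (SD, n = 5 each), with a two-sided exact permutation p of 0.643, where 0.00794 is the smallest the 252 divisions allow. A second feature lay unevenly. The Dap control probe set used here, which detects a bacterial RNA spike, read above 6 in 0 of 5 high-score and 3 of 5 low-score tumors (5, 11 and 2). Its means were 3.77 and 6.12, with an exact permutation p of 0.0952, or 0.476 adjusted over 5 technical measures. All 3 low-score tumors with a full 5′ signal carried the spike and neither of the 2 such high-score tumors did, so within the tumors of full 5′ signal the score group and the spike cannot be told apart. The 3 high-score and 2 low-score tumors of low 5′ signal were free of it.

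Tumor 5 stood apart from the other 14. The mean level of 28 skeletal muscle genes was 8.79 in it and 4.82 to 5.73 in the others, and that of 10 adipocyte genes was 8.73 in it and 5.90 to 7.12 in the others. Its COL1A1, a chain of the type I collagen that makes up bone matrix, read 9.58, against 12.3 to 13.9 in the other tumors. What share of any difference came from muscle or fat in the sample was not tested, and values are therefore given without tumor 5 as well. Tumor 10 had the highest mean level of 23 macrophage and myeloid genes, 8.78.

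Measured genes of lists drawn around the osteoblast program followed the score only in part. The lists of osteoblast transcription factors, bone matrix proteins, mineral and phosphate handling, osteocyte genes and PTH receptor signalling held 46 measured genes with 89 probe sets, of which 0 were higher and 0 lower at an adjusted p under 0.05, and 7 were higher and 15 lower at an unadjusted p under 0.05. The shares at that level on the whole array (23833 probe sets) were 5.66% higher and 3.52% lower. Measured were 2 of 18 listed transcription factors, 12 of 24 matrix, 9 of 18 mineral, 5 of 16 osteocyte and 18 of 37 PTH signalling genes. Most listed transcription factors and osteocyte genes were thus not tested. Some of the 89 probe sets read low in tumors and far higher in a normal organ. AHSG (1583427_s_at) averaged 3.23 in high-score tumors, 3.22 in low-score tumors and 12.1 in liver. SLC34A1 (1589929_at) averaged 3.87 and 3.75 in the same groups and 11.8 in kidney. The counts are therefore not those of osteoblast genes alone. As a whole, the measured genes of these lists were not shown to be higher in high-score tumors. With 5 arrays a side, a p that misses the threshold does not show equal levels. Whether the label of high and low osteoblast differentiation holds cannot be told from these counts. The groups are therefore called by their score.

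Osteocalcin was the exception among the matrix genes, in 1 of its 2 probe sets. The probe set 1583110_at of BGLAP read 8.81, 4.69, 10.3, 8.03 and 9.64 in the high-score tumors, against 7.62, 3.99, 3.79, 3.97 and 4.16 in the low-score tumors. It was thus high in 4 of 5 high-score tumors and in 1 of 5 low-score tumors, tumor 14, and among the middle tumors it was high only in tumor 9 (7.38, the other 4 reading 4.33 to 4.56). The difference was 3.60 ± 1.10 (SE), limma adjusted p = 0.301, and 3.42 without tumor 5. The cell lines averaged 4.82 and the 6 normal samples 4.44. The other BGLAP probe set, 1583109_at, which the rule of the brighter probe set picked, differed by 0.54 (adjusted p = 0.806). The annotation derives both from 1 transcript record, and BGLAP was set apart here after its values were seen.

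RUNX2, the osteoblast master regulator, was dim throughout and differed by 0.28, with 5.76 in tumor 13 and at most 5.02 in the other 9 of the 10 tumors. COL1A1 differed by 1.16, a value set by tumor 5, without which it was 0.41. Its other probe set differed by 0.46, and by -0.32 without tumor 5. COL1A2, the other chain of type I collagen, differed by 0.14, and by -0.36 to 0.43 in its other probe sets. SPARC, the collagen-binding osteonectin, differed by 0.33, and by -0.51 and 0.73 in its other probe sets. SPP1, osteopontin, a phosphoprotein made by osteoblasts, osteoclasts and macrophages, differed by 0.80. The adjusted p-values of these 5 genes in limma, each by its brightest probe set, lay between 0.562 and 0.970. Median differences of the 12 measured bone matrix genes (of 24 listed) and of all 6537 genes tested were 0.02 and 0.05. Of the 12, 0 were higher and 3 lower at an unadjusted p under 0.05, namely the glycoprotein fibronectin FN1 (-0.72), FBN1 and DCN. The other FN1 probe sets differed by -1.32 to 0.20 and did not reach that level. Of all genes tested, 9.41% were higher and 4.44% lower at that level. POSTN, the matricellular protein periostin, read 3.61, 5.61, 6.42, 6.18 and 3.12 in the high-score tumors, against 10.3, 4.19, 7.89, 8.59 and 5.89 in the low-score tumors (-2.38, adjusted p = 0.579, and -3.17 without tumor 5). Tumors 5 and 8 overlapped with the high-score range.

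BGN, the small proteoglycan biglycan, had a difference of 1.51 (adjusted p = 0.848) that lay with the technical classes. It read 10.6, 4.78, 4.70, 9.94 and 4.69 in the high-score tumors, against 5.23, 5.18, 6.196, 5.88 and 4.70 in the low-score tumors. Both high-score tumors with full 5′ signal were high, and so was tumor 9 of the middle at 10.8, and these 3 were the only tumors with full 5′ signal and no spike. The 5 tumors with full 5′ signal and the spike read 5.18 to 6.92, among them tumors 6 and 15 of the middle at 5.85 and 6.92. All 7 tumors of low 5′ signal read 4.57 to 5.23. Its difference was 4.52 within full 5′ signal and -0.24 within low 5′ signal.

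Across the array, 6 probe sets were higher (0.0252% of 23833) and 3 were lower (0.0126%) in high-score tumors at an adjusted p under 0.05, and 1349 and 839 at an unadjusted p under 0.05. With the 5′ difference as a covariate, 3 of these 9 still passed, among them ASPSCR1 and EPB41L3 (adjusted p = 0.0257 each). Without the tumors that carried the spike, which left 5 against 2 tumors, 0 passed in limma, and 928 were higher and 1758 lower at an unadjusted p under 0.05.

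RARRES1, a membrane protein first found as induced by retinoic acid, rose. It read 12.2, 11.6, 11.9, 11.8 and 12.2 in the high-score tumors, against 10.3, 9.52, 10.4, 10.6 and 10.3 in the low-score tumors. The difference was 1.72 ± 0.20 (SE), adjusted p = 0.0284. Leaving out each tumor in turn gave differences of 1.55 to 1.81, and 3 of the 10 fits passed. The groups did not overlap, and the middle tumors (10.8 to 12.4) reached both the gap and the high-score range.

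ASPSCR1, which tethers glucose transporter vesicles and is known in sarcoma as the fusion partner of TFE3, rose by 1.29 ± 0.12 (adjusted p = 0.0114). Its levels were 9.05, 9.15, 8.87, 9.08 and 9.12 in the high-score tumors, against 8.11, 7.67, 7.47, 7.74 and 7.84 in the low-score tumors. It passed in all 10 fits that left out 1 tumor (adjusted p up to 0.0477), and a dimmer probe set of the same gene differed by 0.27. EPB41L3, a protein of the membrane skeleton, rose by 1.16 ± 0.11 in 1591825_at (adjusted p = 0.0114), while its brightest probe set differed by 1.13 with wider spread (adjusted p = 0.410).

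PDLIM1, a PDZ and LIM domain protein that binds alpha-actinin on actin fibers, fell. It read 7.72, 7.96, 8.81, 9.01 and 9.13 in the high-score tumors, against 10.8, 10.4, 10.4, 10.8 and 10.9 in the low-score tumors. The difference was -2.14 ± 0.28 (adjusted p = 0.0481). With 1 tumor left out it ranged from -2.29 to -1.94, and 2 of the 10 fits passed, those without tumor 10 and without tumor 14. The cell lines averaged 11.2, at the low-score end. The remaining 5 of the 9 probe sets had no gene symbol in the annotation used here, and whether any belongs to a gene of the score was not tested. Of these, 1586664_at differed by 2.47 and 1598088_at by 1.72, and 1588188_at by -1.95 and 1604390_at by -1.77.

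**Figure D2:**
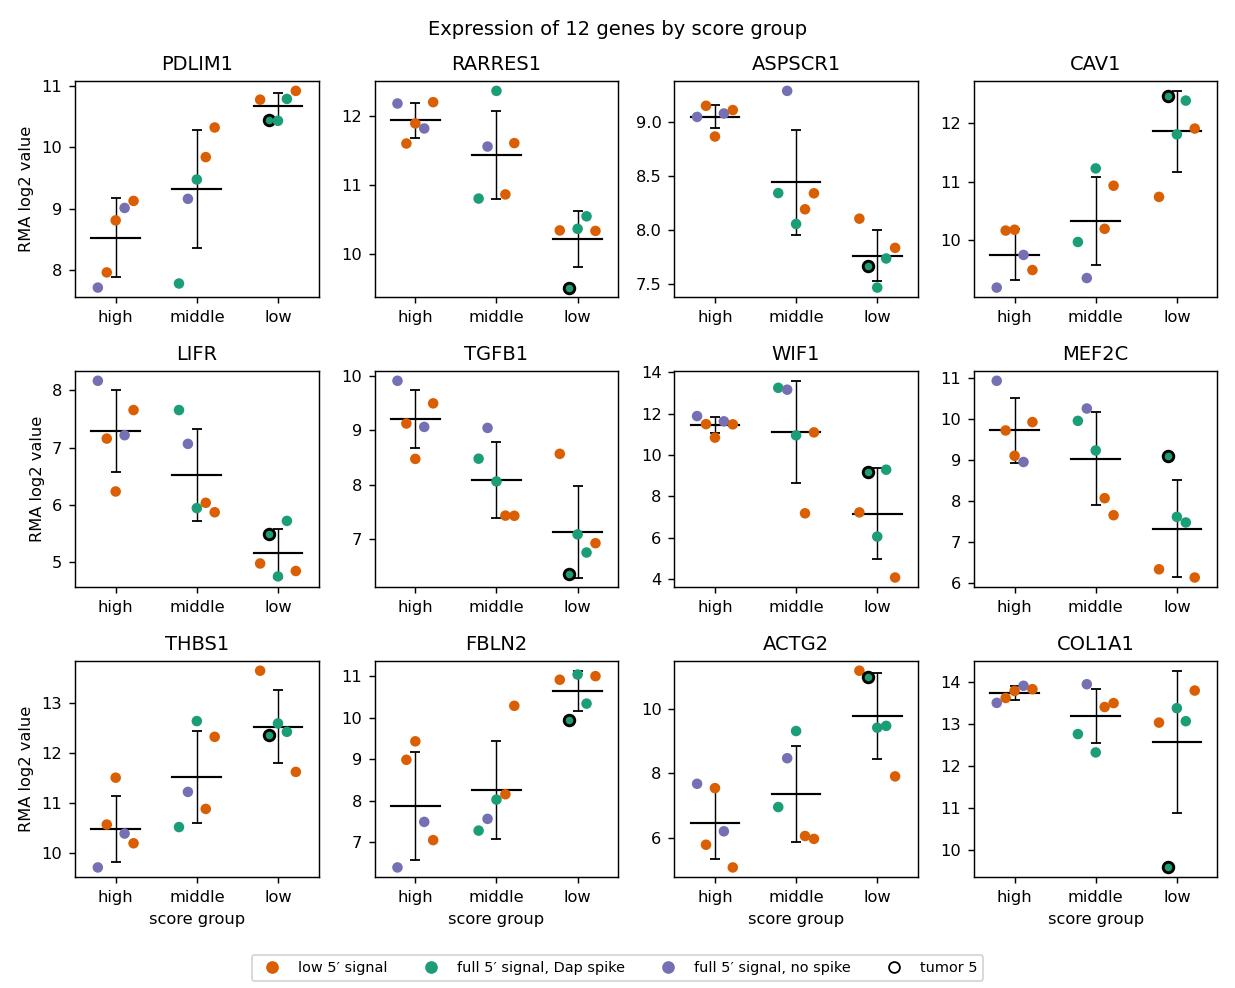
RMA log2 levels of 12 genes in the high-score, middle and low-score tumors (5 each; points are tumors, lines means, bars SD), colored by 5′ signal and Dap spike, with tumor 5 ringed. PDLIM1, RARRES1 and ASPSCR1 passed the test of high-score against low-score tumors; the low COL1A1 value of 9.58 is tumor 5.

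Taking the score as a number over all 15 tumors, which brings in the 5 middle ones, gave 20 higher (0.0839%) and 12 lower (0.0504%) probe sets, 4 of them among the 9. Scaled to the gap of 2.45 between the 2 group means, TGFB1, the transforming growth factor stored in bone matrix, was higher by 2.21 ± 0.27 (adjusted p = 0.0166). BMP6, a bone morphogenetic protein, was higher by 1.86 (adjusted p = 0.0395), LIFR, the receptor subunit of leukemia inhibitory factor, by 2.08 (adjusted p = 0.0351), and CPE, a carboxypeptidase of the secretory pathway, in both of its probe sets (1.80 and 2.27). CAV1, the coat protein of caveolae, fell by 2.13 (adjusted p = 0.0241), and EFEMP1, the matrix protein fibulin 3, fell by 3.11 (adjusted p = 0.0304). With 3 technical classes as a block in that fit, PDLIM1 still passed (-2.50, adjusted p = 0.0217), and TGFB1 (1.89), BMP6 (1.57), LIFR (2.03) and CAV1 (-1.66) had adjusted p-values of 0.134 to 0.287.

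In the comparison of 5 against 5 those genes did not pass, and their values were as follows. TGFB1 read 9.92, 9.13, 8.47, 9.07 and 9.501 in the high-score tumors, against 8.57, 6.35, 7.08, 6.74 and 6.92 in the low-score tumors. LIFR read 8.16, 7.16, 6.24, 7.22 and 7.65 in the high-score tumors, against 4.98, 5.49, 4.76, 5.72 and 4.85 in the low-score tumors. CAV1 read 9.19, 10.2, 10.2, 9.75 and 9.49 in the high-score tumors, against 10.7, 12.5, 11.8, 12.4 and 11.9 in the low-score tumors. LIFR and CAV1 separated the groups, and TGFB1 overlapped through tumor 14 alone.

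The next genes by p-value on the high-score side were EZH2, the methyltransferase of Polycomb complex 2 (0.89), CXXC1, a CpG-binding subunit of a histone methyltransferase complex (1.25), RANBP3L (2.25), and YY1, a zinc-finger transcription factor (0.77). CNDP2, CLN3, OXA1L, R3HDM2 and YWHAB followed with 0.48 to 1.08. On the low-score side stood UGP2, which makes UDP-glucose (-1.36), C9H17orf58 (-1.70), TMEM47 (-1.52), GLIPR2 (-1.28) and IL13RA1, a subunit of the interleukin 13 receptor (-0.99). None of these passed the adjusted threshold, with adjusted p-values from 0.0627 to 0.121. The rule for naming them asks for a small p, so that their groups do not overlap follows from the choice; over all genes 137 (2.10%) were apart with the high-score tumors above and 50 (0.765%) with them below.

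Genes of connective tissue and of contractile cells were among the largest differences on the low-score side. THBS1, the matricellular protein thrombospondin 1, read 9.72, 10.6, 11.5, 10.4 and 10.2 in the high-score tumors, against 13.6, 12.4, 12.6, 12.4 and 11.6 in the low-score tumors. FBLN2, a fibulin of elastic fibers, read 6.39, 8.99, 9.43, 7.49 and 7.05 in the high-score tumors, against 10.9, 9.95, 11.04, 10.3 and 11.003 in the low-score tumors. In both genes every low-score tumor was above every high-score tumor, with differences of -2.05 and -2.78 and adjusted p-values of 0.140 and 0.153. MEDAG (-3.20), ABI3BP (-2.90) and FHL1 (-2.58), a LIM protein abundant in muscle, were of the same size, and tumor 5 held the highest FHL1 at 13.02. The other 3 FHL1 probe sets differed by -1.48 to 0.0076.

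Of 20 measured genes of fibroblasts and fibrillar matrix, 15 had a negative difference, 9 of them at an unadjusted p under 0.05, and 1 was positive at that level. Over all 6537 genes 3795 had a positive and 2742 a negative difference, and 615 were higher (9.41%) and 290 lower (4.44%) at that level. The median was -0.95, and -1.09 without tumor 5, where the background was 7.21% higher and 4.36% lower. MFAP5, a microfibril glycoprotein (-3.64), and COL14A1, a fibril-associated collagen (-2.03), had adjusted p-values of 0.230 and 0.238. The other 3 probe sets of each gene differed by -4.88 to -0.22 and by -2.42 to 0.04. Of the bone matrix list, FBN1, the fibrillin of microfibrils, differed by -2.07 (adjusted p = 0.280) and DCN, the proteoglycan decorin, by -0.91 in its brightest probe set and by -1.32 and -1.70 in the other 2. The mean level of the list ran from 7.19 to 9.06 in high-score and from 8.51 to 9.77 in low-score tumors, and 0 members passed after adjustment.

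The 13 genes of pericytes and smooth muscle all had a negative difference, and 0 passed after adjustment. Lower at an unadjusted p under 0.05 were 6 of them, against 4.44% of all genes. The median of the 13 was -0.79 over the 10 tumors, -0.56 without tumor 5 and -1.03 within low 5′ signal. ACTG2, the smooth muscle gamma actin, read 7.68, 5.79, 7.54, 6.21 and 5.09 in the high-score tumors, against 11.2, 10.97, 9.41, 9.47 and 7.91 in the low-score tumors (difference -3.32, adjusted p = 0.153). MYH11, the smooth muscle myosin heavy chain, differed by -2.92 and ACTA2, alpha smooth muscle actin, by -1.73. TAGLN, an actin-binding protein of the same cells, depended on the probe set, with -0.06 in the brightest and -2.46, -2.66 and -0.11 in the others. The mean level of the 13 genes lay between 7.02 and 7.76 in high-score and between 8.01 and 9.59 in low-score tumors, with no overlap. The middle tumors ran from 7.13 to 8.07. The highest of them, tumor 9, lay above low-score tumors 2 (8.01) and 8 (8.05).

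**Figure D3:**
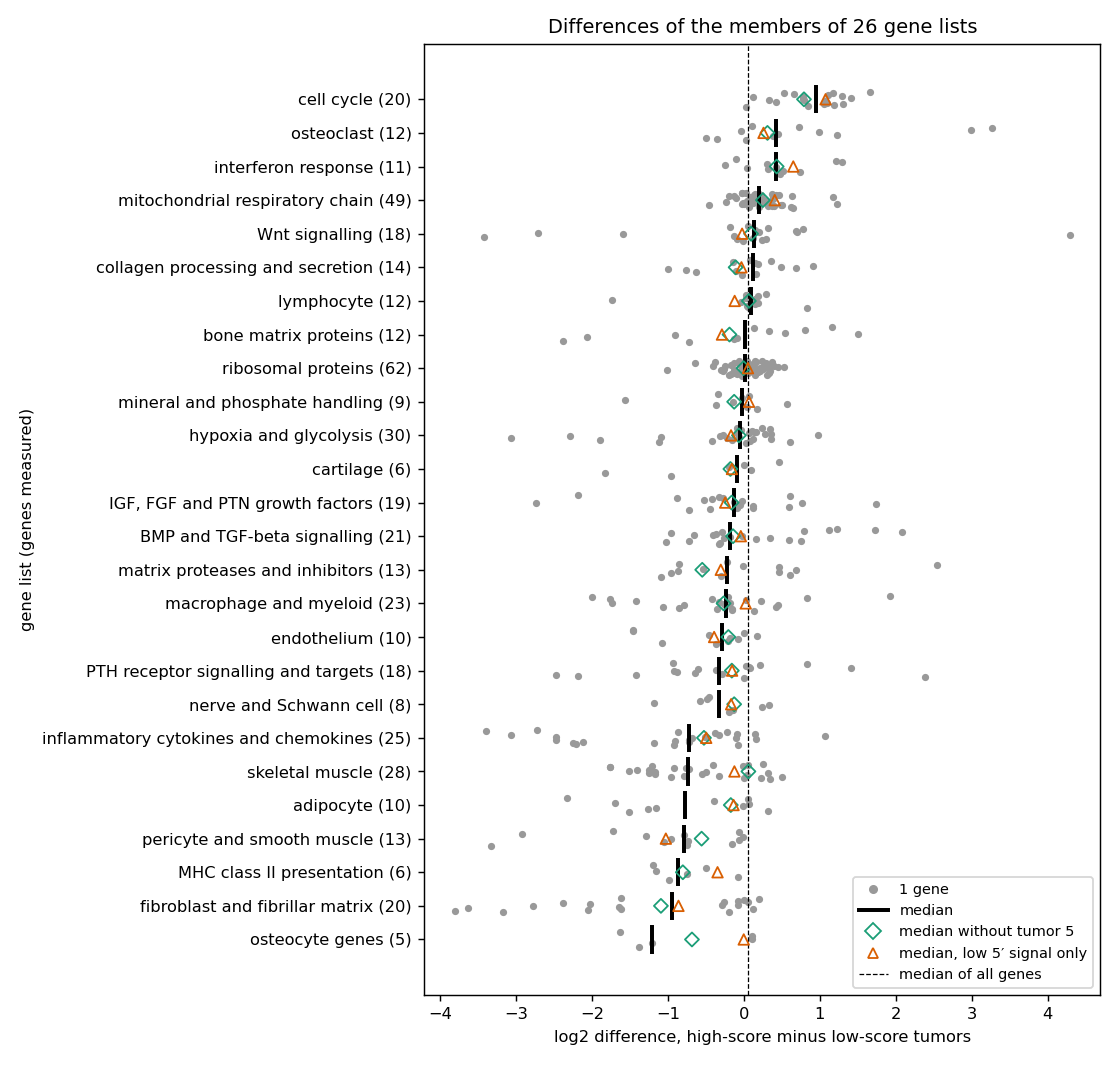
Log2 differences (high-score minus low-score tumors) of the genes of 26 lists, 1 gray point per gene, with list medians over all 10 tumors (bars), without tumor 5 (diamonds) and within low 5′ signal (triangles). Cell cycle genes lie to the right with a median of 0.95, and the skeletal muscle median of -0.74 becomes 0.06 without tumor 5.

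Muscle and fat genes differed mainly through 1 tumor. Of 28 skeletal muscle genes, 20 had a negative difference and the median was -0.74, but 0.06 without tumor 5. Of 10 adipocyte genes, 7 were negative with a median of -0.77, and -0.17 without it. ADIPOQ, the fat cell hormone adiponectin, read 4.24, 4.33, 4.19, 4.35 and 4.52 in the high-score tumors, against 4.82, 10.6, 6.15, 4.16 and 7.52 in the low-score tumors, so that tumors 8 and 11 also held it.

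Of 10 endothelial genes 8 had a negative difference, with a median of -0.29. Lower at an unadjusted p under 0.05 were 3 of them, against 4.44% of all genes. VWF, the clotting factor of endothelium, read 5.92, 6.85, 7.08, 7.16 and 6.01 in the high-score tumors, against 7.30, 8.77, 8.47, 7.69 and 8.08 in the low-score tumors (difference -1.46, adjusted p = 0.179). PECAM1 differed by -1.46 and ECSCR by -1.08. Of the 3, only VWF kept the groups apart.

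Of 23 macrophage and myeloid genes 7 were positive and 16 negative with a median of -0.23. In each direction 1 reached an unadjusted p under 0.05, against 9.41% of all genes higher and 4.44% lower. Without tumor 10 the lower ones were 7 and the median -0.44, and without tumor 14 they were 4. CD163, a scavenger receptor of macrophages, differed by -2.01 and CD68, a lysosomal protein of macrophages and osteoclasts, by 1.92. All 6 measured MHC class II presentation genes were negative with a median of -0.87, 1 at an unadjusted p under 0.05, and their mean level ranged from 7.48 to 10.3 in high-score and from 8.57 to 9.93 in low-score tumors. Tumor 10 was the high-score tumor at 10.3, and without it 5 of the 6 were lower at that level with a median of -1.34. Lymphocyte genes had a median of 0.09.

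Osteoclasts are the bone-resorbing cells that osteoblasts call up. Of the 12 osteoclast genes, 9 had a positive difference, with a median of 0.42. At an unadjusted p under 0.05, 2 were higher (4 without tumor 12 or 14). Over all 6537 genes tested, 3795 had a positive difference and 615 (9.41%) were higher at that level. MMP9, a gelatinase made in bulk by osteoclasts, read 12.1, 11.3, 12.98, 10.5 and 12.2 in the high-score tumors, against 11.4, 7.48, 9.49, 6.31 and 8.04 in the low-score tumors (difference 3.26, adjusted p = 0.250). ATP6V0D2, a subunit of the proton pump, read 8.14, 6.80, 10.1, 6.30 and 8.85 in the high-score tumors, against 7.59, 3.69, 6.14, 3.995 and 3.90 in the low-score tumors (2.98, adjusted p = 0.309). In both, tumor 14 of the low-score group lay within the high-score range. The middle tumors read 10.5 to 12.9 for MMP9, so the low values lay with the 4 lowest scores. These MMP9 values are those of its brightest probe set, and its other 2 probe sets differed by only 0.12 and 0.20.

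**Figure D4:**
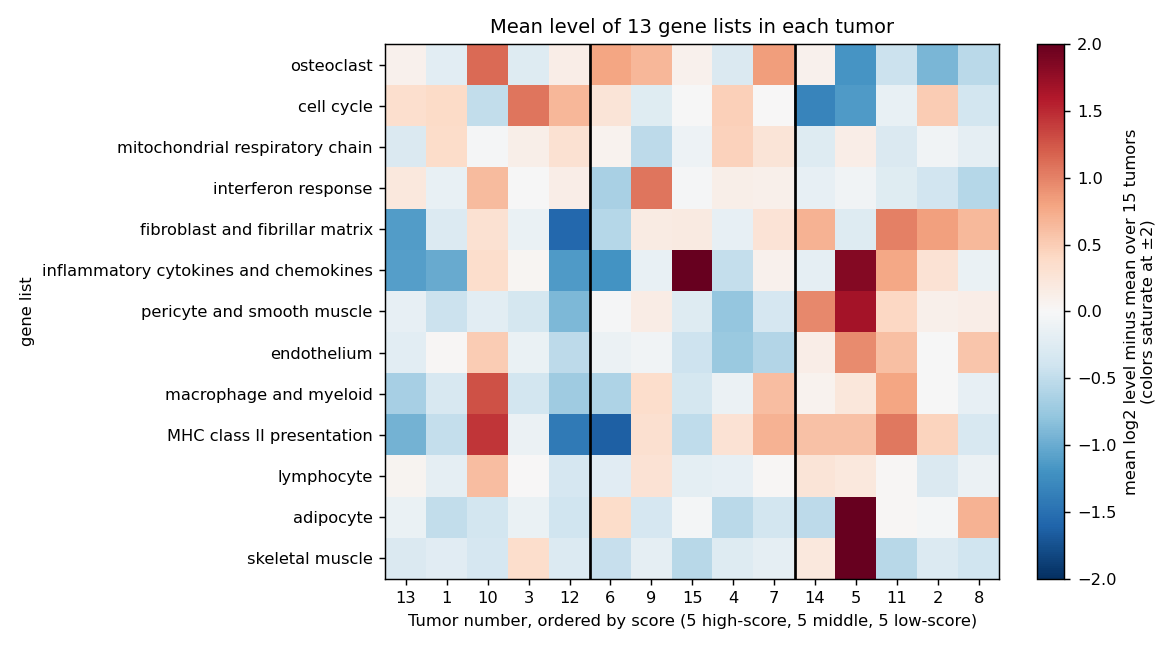
Mean log2 level of 13 gene lists in each tumor, minus the mean over the 15 tumors, with tumors ordered by score from left to right. Tumor 5 carries the skeletal muscle and adipocyte signal (mean levels 8.79 and 8.73). Tumor 10 has the highest osteoclast and macrophage levels (8.66 and 8.78) with other tumors at up to 8.37 and 8.31. The pericyte and smooth muscle level is 8.01 or above in all 5 low-score tumors and in tumor 9 of the middle (8.07).

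All 20 cell cycle genes measured had a positive difference, 7 at an unadjusted p under 0.05 and 0 after adjustment, with a median of 0.95 in the 10 tumors. Of all 6537 genes tested, 3795 had a positive difference and 615 (9.41%) were higher at that level. With 1 tumor left out, 3 of the 20 were at that level without tumor 5 or 14 (medians 0.79 and 0.75). The number was 11 without tumor 10 and 12 without tumor 2 (medians 1.18 and 1.26), and 4 without tumor 1, 3 or 12. The number over all genes moved as well, from 471 without tumor 5 to 703 without tumor 10. AURKB, the mitotic kinase aurora B, differed by 1.17, TYMS, thymidylate synthase, by 1.07, BIRC5, survivin, by 1.09 and CKS1B by 0.85. The mean level of the list was 7.13, 7.18, 6.31, 7.88 and 7.46 in the high-score tumors, against 5.48, 5.67, 6.65, 7.31 and 6.44 in the low-score tumors. The groups overlapped through tumors 10 and 2, and the lowest levels were those of tumors 14 and 5.

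Of 49 respiratory chain genes, 39 had a positive difference with a median of 0.20. At an unadjusted p under 0.05, 8 were positive and 1 negative, against 9.41% and 4.44% of all genes. Without tumor 13 the positive ones were 13, against 653 of all 6537 genes. The list median was 0.40 within low and -0.03 within full 5′ signal, where all genes had 0.04 and 0.07. CYC1, the cytochrome c1 subunit of complex III, read 9.45, 10.4, 9.16, 10.1 and 9.81 in the high-score tumors, against 8.45, 8.46, 8.51, 8.45 and 8.98 in the low-score tumors (1.23, adjusted p = 0.133). NDUFB9, of complex I, differed by 1.17 and ATP5MC3, of the ATP synthase, by 0.65. The 62 ribosomal protein genes had a median of 0.01, with 6 higher and 3 lower at an unadjusted p under 0.05.

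Of the Wnt genes, whose pathway drives bone formation, the secreted inhibitor WIF1 had the largest difference, 4.29 ± 0.90 (SE; adjusted p = 0.153). It read 11.9, 11.5, 10.8, 11.6 and 11.5 in the high-score tumors, against 7.23, 9.19, 6.07, 9.29 and 4.09 in the low-score tumors, and 4 of the 5 middle tumors read 10.9 to 13.2 with tumor 4 at 7.19. DKK3 and FRZB, also inhibitors, had differences of the opposite sign. DKK3 read 4.83, 7.89, 8.99, 8.26 and 4.28 in the high-score tumors, against 12.6, 9.08, 9.23, 10.001 and 10.5 in the low-score tumors (-3.42, adjusted p = 0.294). FRZB differed by -1.59, and by -0.23 in its other probe set. LRP4, a sclerostin-binding receptor, differed by 0.78. The 18 Wnt genes measured had a median of 0.13, with 2 higher and 3 lower at an unadjusted p under 0.05. Of all genes, 9.41% were higher and 4.44% lower at that level. Without tumor 1, 4 of the Wnt genes were higher, against 540 of all 6537 genes.

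Among 21 BMP and TGF-beta genes, 4 were higher and 2 lower at an unadjusted p under 0.05, with a median of -0.19. Of all genes, 9.41% were higher and 4.44% lower at that level. Beside TGFB1 (2.09) and BMP6 (1.72), the osteogenic ligand BMP2 differed by 1.22 and CCN1, a matricellular protein, by -1.03. The growth factor list held 2 of 19 lower at that level, IGF1 (-2.18) and FGF7 (-2.73), and 4 without tumor 14. The other IGF1 probe set differed by -0.24. FGF7, made by mesenchymal cells for epithelia, stayed between 4.10 and 4.90 in the high-score tumors and read 4.01, 7.49, 8.53, 8.30 and 7.42 in the low-score tumors.

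PTH receptor signalling held 18 measured genes with a median of -0.33. At an unadjusted p under 0.05, 3 were higher and 5 lower, against 9.41% and 4.44% of all genes. The 5 lower became 2 without tumor 5 (median -0.16) or tumor 11, 3 without tumor 1, 3, 8 or 12, and 7 without tumor 14. PRKAR1A, the regulatory subunit of the kinase that cyclic AMP activates, read 9.32, 8.48, 8.50, 10.2 and 8.602 in the high-score tumors, against 7.97, 7.35, 7.21, 7.21 and 8.33 in the low-score tumors. Its difference of 1.41 (adjusted p = 0.238) was 2.51 within full and 0.38 within low 5′ signal. MEF2C, a transcription factor of osteocytes and muscle, read 10.9, 9.71, 9.10, 8.95 and 9.92 in the high-score tumors, against 6.34, 9.09, 7.62, 7.48 and 6.14 in the low-score tumors. Its difference was 2.39 (adjusted p = 0.181) and 2.83 without tumor 5. NR4A1 (-1.42) and NR4A2 (-2.48), orphan receptors that parathyroid hormone induces early in osteoblasts, and IGF1 ran the other way, and with NR4A1 and NR4A2 the highest levels were those of tumors 5 and 11.

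Of 5 measured genes on the osteocyte list 2 had a positive and 3 a negative difference. Only 1 was lower at an unadjusted p under 0.05, against 4.44% of all genes. The median was -1.22, and -0.0029 within low 5′ signal. Whether the RNA of these 5 genes came from osteocytes was not tested. PDPN, an early marker of osteocytes that fibroblasts and lymphatic vessels also express, differed by -1.63 (adjusted p = 0.363), RELN by -1.39 and CD44 by -1.22, while HYOU1 and TNFRSF11A, the receptor RANK, differed by 0.10 and 0.11. CD44 was 4.30 to 5.10 in the high-score tumors and above that range only in tumors 5 (8.06) and 11 (7.33) of the low-score group. STC1, a calcium and phosphate hormone, differed by -1.57.

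Of 25 inflammatory genes 22 had a negative difference, with a median of -0.73 (-0.53 without tumor 5). Lower at an unadjusted p under 0.05 were 9, against 4.44% of all genes, and 6 without tumor 5, against 4.36%. Without tumor 1 the lower ones were 4, and without tumor 11 or 12 they were 5. IL33, an alarmin, read 4.39, 4.94, 5.87, 4.93 and 4.12 in the high-score tumors, against 5.02, 9.99, 8.76, 8.77 and 7.05 in the low-score tumors (-3.07, adjusted p = 0.245). VCAM1 differed by -2.25, NFKBIZ by -2.12, CXCL16 by -0.52 and CXCL8, the neutrophil chemokine interleukin 8, by -2.73 (adjusted p = 0.597). The 3 tumors that carried the spike held the highest low-score levels of IL33, VCAM1 and CXCL8, and within low 5′ signal the differences were -1.06, -0.48 and -1.13.

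Of 11 interferon genes 9 had a positive difference, with a median of 0.42. Higher at an unadjusted p under 0.05 were 3 of them, against 9.41% of all genes. MX1, an antiviral GTPase, read 7.997, 6.77, 7.35, 6.92 and 7.5998 in the high-score tumors, against 6.196, 6.69, 5.80, 5.71 and 5.77 in the low-score tumors (1.29, adjusted p = 0.153), and ISG15 differed by 1.22. The highest MX1 of all tumors, 10.1, was that of tumor 9, of the middle.

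The hypoxia and glycolysis list had a median of -0.05, with 5 of 30 lower at an unadjusted p under 0.05, against 4.44% of all genes. ADM, adrenomedullin, a vessel-dilating peptide induced in hypoxia, read 5.64, 5.79, 6.31, 6.996 and 5.27 in the high-score tumors, against 6.45, 10.5, 10.1, 9.53 and 8.72 in the low-score tumors (-3.07, adjusted p = 0.177). ANKRD37 (-1.89), PFKFB3 (-1.12) and SLC2A3 (-2.29), the glucose transporter GLUT3, were the other members named. Of the cancer gene list EGFR differed by -1.80 (adjusted p = 0.227), with 4.64 to 6.92 in high-score and 7.20 to 7.90 in low-score tumors, FOS by -1.69 and MDM2 by -0.52.

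The proteases MMP13, a collagenase of osteoblasts and cartilage (2.54, adjusted p = 0.751), and CTSB, cathepsin B (-1.09, adjusted p = 0.363), did not pass either. MMP13 ran from 4.51 to 11.6 in high-score and from 3.68 to 9.14 in low-score tumors. COMP, a matrix protein of cartilage and tendon, differed by -1.83.

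The 2 classes of 5′ signal share no tumor, so they give separate values of the same comparison. PDLIM1 differed by -2.21 within low and -2.19 within full 5′ signal, and ACTG2 by -3.40 and -3.01. WIF1 differed by 5.61 within low and 3.57 within full 5′ signal, and MEF2C by 3.34 and 1.88. MMP9, in its brightest probe set, differed by 2.42 and 3.53. IL33 (-1.06 and -4.52), VCAM1 (-0.48 and -3.52) and FOS (-0.16 and -3.13) were larger in the class where the spike lay with the low-score tumors, and RELN changed sign (0.44 and -3.04). These genes were named for their difference over both classes together, which in part sets that the signs are alike.

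**Figure D5:**
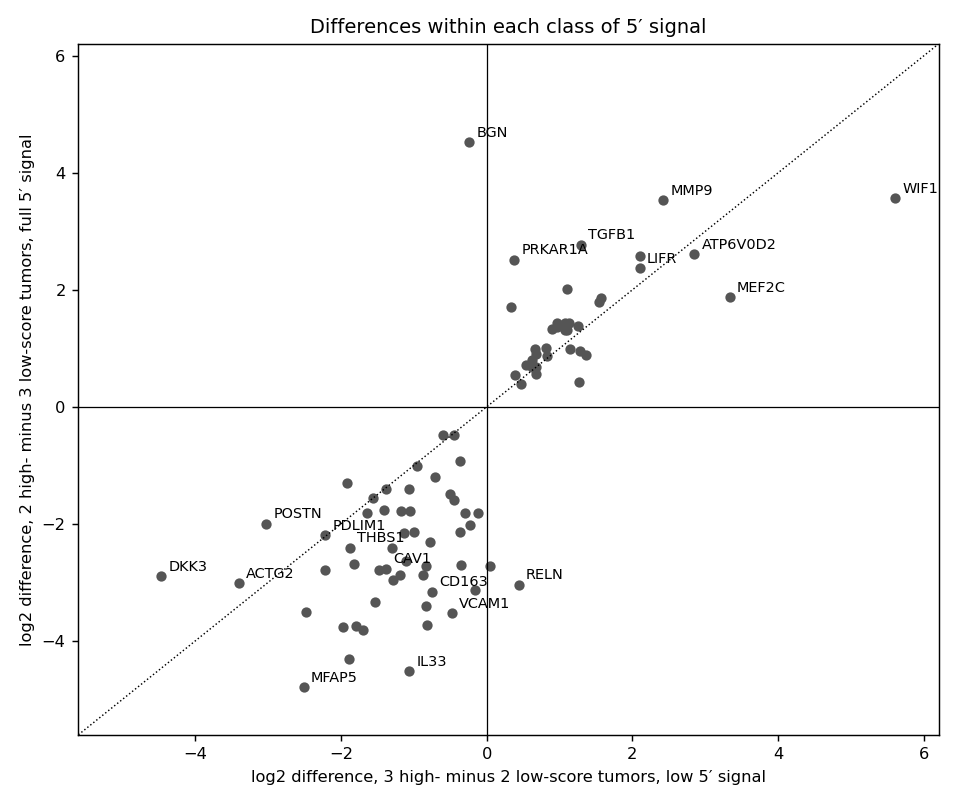
Log2 differences of the genes named by rule within tumors of low 5′ signal (3 high-score and 2 low-score, horizontal axis) and within tumors of full 5′ signal (2 high-score and 3 low-score, vertical axis); the dotted line marks equal values. BGN (-0.24 and 4.52) and RELN (0.44 and -3.04) lie across an axis, and IL33 and VCAM1 lie far below the line.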

How the data were processed

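Expression of 15 tumors, 2 cell lines and 6 normal samples was measured on the Affymetrix Canine Genome array. The deposited values are log2 levels that the authors made by Robust Multichip Average (RMA) over all canine arrays. No batch or scan date was used here. The number of arrays limits precision, as do the uneven 5′ signal, the spike and single tumors such as tumor 5. The table's 77 control probe sets and the 3 probe sets annotated to the score's genes were left out, and 23833 were tested. Of these, 10546 had 1 gene symbol in the platform annotation, 138 several and 13149 none. Each gene was represented by the probe set that was brightest on average across all 23 arrays, which gave 6537 genes. Of these, 2349 had several probe sets. The others of a gene could differ more or less, as in ACTG2 (-3.99 to -0.10), VWF (-1.83 to 0.03) and PECAM1 (-1.44 to 0.04).

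High-score and low-score tumors were compared with limma 3.58.1 in R 4.3.3 (lmFit, eBayes, two-sided, Benjamini-Hochberg over 23833 probe sets, threshold 0.05), with no covariate. Technical measures were compared by exact permutation. The scripts were tested on simulated data. Alternatives were the 5′ difference as a covariate or block, each 5′ class alone, the score as a number over 15 tumors, other scores and group sizes, brighter probe sets, trended robust eBayes, median centring, a threshold of 0.01 and leaving out each tumor. After the data were seen, leaving out the tumors with the spike, and the score over 15 tumors with 3 technical classes or with the 5′ difference, were added.

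Genes were named by rule: up to 12 per direction, called ones first and then by unadjusted p; osteoblast, bone, mineral, osteocyte and PTH genes past the threshold or over 1 log2 unit; and up to 4 of each other list by p. BGLAP, RUNX2, SPP1, SPARC, COL1A2, DCN, TAGLN, EPB41L3, EFEMP1, CPE, CXCL8, MMP13, FN1, HYOU1 and TNFRSF11A are named outside it, after their values were seen. The tumors, the 31 gene lists and the tests were chosen with earlier results of these data known. Of 1036 listed genes 499 were measured. No sequences or coordinates are given, because no reference of the array's probes was used here.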

Additional observations from a re-analysis of the deposited data

Results flagged for a closer look

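A tumor far from the other 4 of its group was found in 31 of 280 groups examined, where chance gives about 1 in 20. Tumor 5 was that tumor in 12, tumor 10 in 7 and tumor 14 in 5, and the values of 1 tumor are not independent of each other.

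In the low-score group, tumor 5 held the highest PHEX (6.37), FHL1 (13.02), ATP5MC3 (11.1) and mean skeletal muscle level (8.79). It held the lowest RARRES1 (9.52), COL1A1 (9.58), COL1A2 (12.005) and RBP4 (11.2), and the lowest mean level of bone matrix (8.71), fibroblast (8.51), collagen processing (7.69) and ribosomal protein genes (10.95).

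Tumor 10 was the high-score tumor with the highest RELN (8.46), NR4A2 (7.01), IGF1 (7.24), mean osteoclast level (8.66) and mean macrophage level (8.78), and with the lowest YY1 (8.90) and ATP5MC3 (11.1).

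Tumor 14 was the low-score tumor with the highest CXCL16 (7.95) and the lowest MEDAG (6.47), FBN1 (9.71) and FGF7 (4.01). It was also the only low-score tumor with a high second BGLAP probe set (7.62, the others at 4.16 or below).

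Among the other high-score tumors, tumor 13 had the highest R3HDM2 (7.12) and the lowest RBP4 (9.44), and tumor 3 the highest KCNJ8 (4.88), skeletal muscle level (5.73) and erythroid level (5.74). Among the other low-score tumors, tumor 8 had the highest CYC1 (8.98) and tumor 2 the lowest EGFR (7.20).

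The Dap spike control, outside the expression measurement, reached 8.17 in a low-score tumor, against at most 3.31 in the 6 normal samples.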

How the results depend on the processing

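No paired analysis was possible because the 2 groups were cut from 1 group of tumors whose numbers are each carried by 1 sample. The mean over all probe sets of the 3 score genes was not run, since each has 1 annotated probe set. Dividing each gene by its SD gave the same 10 tumors.

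Against 6 higher and 3 lower probe sets, the counts were 2 and 1 with the 5′ difference as a covariate, 71 and 40 within full 5′ signal, 0 and 0 within low 5′ signal (1155 and 1105 at an unadjusted p under 0.05), 20 and 12 with the score as a number over 15 tumors, 41 and 24 with the 5′ difference added to that, 3 and 1 from ALPL and PHEX, and 0 and 0 at a threshold of 0.01. Without the tumors that carried the spike they were 0 and 0. The 5′ class as a block gave 7 lower, 4 against 4 tumors 8, the brighter probe sets 1 and the 3 technical classes over 15 tumors 1. Taking 7 against 7 gave 3 higher, and trended robust eBayes 0. Leaving out 1 tumor gave 2 to 43 higher and 0 to 24 lower, the largest counts being 66 in all without tumor 10 and 51 without tumor 14, which hold the 9, and the smallest 2 in all without tumor 11. Of the list members, 0 of 499 passed, against 8 within full 5′ signal, 2 over 15 tumors, 5 with the 5′ difference there, 1 each from PTH1R and PHEX and from 4 against 4, and 0 to 7 with 1 tumor left out. The cause of these moves was not tested. The group difference in 5′ signal ranged from -0.040 (without tumor 1) to 1.21.

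Signs turned within low 5′ signal for BGN (-0.24), RELN (0.44), NR4A1 (0.044), RUNX2 (-0.053), BGLAP (-0.0045, brighter probe set), SPARC (-0.086) and COL1A2 (-0.13). Without the spike they turned for CD44 (0.036), BGLAP (-0.32), SPARC (-0.0093) and COL1A2 (-0.21). With 3 technical classes they turned for MDM2 (0.68), SPARC (-0.042) and COL1A2 (-0.021). MDM2 also turned with PTH1R and PHEX (0.16) and with 7 against 7 (0.059), and COL1A2 with ALPL and PHEX (-0.13) and without tumor 5 (-0.21, the range with 1 tumor left out being -0.21 to 0.25). TAGLN (brightest probe set) turned within full 5′ signal (0.25), with PTH1R and PHEX (0.060), with 4 against 4 (0.034), with 7 against 7 (0.036) and without tumor 8 (0.202, the range with 1 tumor left out being -0.198 to 0.202). No other sign turned among the 104 genes, each by its brightest probe set, and the second BGLAP probe set in the alternatives that were run. With 5 arrays a side, and 3 against 2 within low 5′ signal, a p that misses the threshold does not show equal levels.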
